A study of Mus musculus with 18 samples.

Results

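The genes described here are 8 genes of retinoic acid synthesis and response, of 23420 genes listed in each of 3 tables from embryonic mouse lungs. They are *Stra6*, *Dhrs3*, *Aldh1a2*, *Crabp1*, *Crabp2*, *Cyp26b1*, *Rara* and *Rarb*, and they were chosen by name. A fall of *Crabp1* in *Vangl1/2* mutant lungs was part of that choice. The values of the 8 genes in the *Vangl1/2* experiment are therefore given as a description with no test, while the other experiments were tested.

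RNA-Seq was carried out on lungs in bulk in 3 experiments, each with 3 control and 3 mutant libraries. In the *Vangl1/2* experiment at E12.5dpc (days post coitus), controls were labelled Vangl1-/- and mutants Vangl1-/-; Vangl2-/-, so that both groups lacked *Vangl1* and differed in *Vangl2*. *Vangl1* was disrupted by a gene trap, and *Vangl2* was deleted in all cells with a ubiquitous Cre. In the Dermo1-Cre experiment at E12.5dpc, controls were Wnt5af/+; Dermo1Cre and mutants Wnt5af/f; Dermo1Cre. This Cre is active in the mesenchyme, and the controls carried it as well and had one floxed allele of *Wnt5a*. In the Sox9-Cre experiment at E13.5dpc, controls were Wnt5af/+; Sox9Cre and mutants Wnt5af/f; Sox9Cre, with a Cre of the lung epithelium. The comparisons ask how the RNA of a branching lung differs when *Vangl2*, or *Wnt5a* in either tissue layer, is removed. The labels do not say how many embryos went into a library. P-values thus measure the spread between these libraries, which may be technical in part.

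Retinoic acid is made from vitamin A inside the embryo and controls transcription in nearby cells. STRA6 takes retinol into cells, retinol is oxidized to retinal, and ALDH1A2 turns retinal into retinoic acid, while DHRS3 reduces retinal back to retinol. CRABP1 and CRABP2 bind retinoic acid in the cytoplasm, CYP26B1 hydroxylates it for breakdown, and the nuclear receptors RARA and RARB carry its signal to DNA together with retinoid X receptors. In the foregut, retinoic acid from the mesoderm is required for the lung bud to form, and *Aldh1a2* later marks the mesothelium that covers the lung.

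The values are normalized counts, which are reads on a gene divided by a size factor of the library. Between 15945393 and 19814346 reads per library lay on genes. *Vangl2* was 277, 406 and 334 normalized counts in the *Vangl1/2* controls and 86.5, 79.8 and 89.6 in the mutants, and all mutants lay below all controls (adjusted p = 0.0318, limma). *Vangl1*, trapped in both groups, still gave reads in both, at 162, 219 and 113 in the controls and 239, 274 and 242 in the mutants (adjusted p = 0.233). *Wnt5a* was 472, 430 and 489 in the Dermo1-Cre controls and 317, 436 and 230 in the mutants. The library labelled mutant 2 thus lay among the controls (adjusted p = 0.406, limma), and without it the *Wnt5a* difference went from -0.55 to -0.78 (adjusted p = 0.132). *Wnt5a* in the Sox9-Cre experiment was 426 to 473 in controls and 362 to 448 in mutants of the whole lung. Lung markers were present in all 18 libraries, with *Nkx2-1* of the epithelium at 2100 to 2884 and *Tbx4* of the mesenchyme at 2967 to 4292. In the *Vangl1/2* experiment, controls 1 and 3 stood apart from the other 4 libraries on the principal component with the most variance, with scores of -30.1 and -44.7 against 17.0 in control 2 and 15.1 to 21.5 in the mutants. Fold changes there rose with exon length across genes (Spearman's rho 0.594 over 14186 genes, a description).

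Before the values, the sequence in front of 2 members is given, 1 with and 1 without a known binding pattern of retinoic acid receptors. Retinoic acid receptors bind pairs of the hexamer AGGTCA or of its close forms, which here were the hexamer GGGTCA, the hexamer AGTTCA and the hexamer GGTTCA, and a classic element has 5 bases between a direct pair. RefSeq promoter windows of 300 bases (GRCm38.p6, 250 bases before and 50 after a start) were found for 7 members, in 15 windows, and were searched on both strands. Such a pair was in 32 of 32851 windows of all genes (0.0974%), and of the members in *Rarb* alone. Its 250 bases before the start lie at chr14:16575477-16575726 on the minus strand, with the pair in capitals. The 250 bases before the start of *Crabp1*, at chr9:54764498-54764747 on the plus strand, hold none of the 4 hexamers.
Rarb: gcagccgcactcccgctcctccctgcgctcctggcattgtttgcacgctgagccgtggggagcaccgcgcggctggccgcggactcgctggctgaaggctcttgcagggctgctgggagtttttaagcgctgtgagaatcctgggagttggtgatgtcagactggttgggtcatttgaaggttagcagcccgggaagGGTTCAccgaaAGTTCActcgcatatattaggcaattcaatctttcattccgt
Crabp1: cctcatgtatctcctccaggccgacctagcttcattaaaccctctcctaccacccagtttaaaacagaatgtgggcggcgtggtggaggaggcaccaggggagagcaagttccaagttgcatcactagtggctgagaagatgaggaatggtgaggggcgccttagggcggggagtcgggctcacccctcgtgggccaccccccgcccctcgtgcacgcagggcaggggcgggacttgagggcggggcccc
The *Rarb* pair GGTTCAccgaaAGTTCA ends 36 bases before the start. *Cyp26a1*, a hydroxylase of the same family as *Cyp26b1* and a known response gene, has the pair on the other strand, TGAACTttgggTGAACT, 15 bases before its start on chromosome 19. A lone hexamer is no mark, since 43.7% of all windows hold at least 1. A match of letters is a description and not a bound site, and windows farther from the start were not searched.

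*Crabp1* was the member with the widest differences. It was 270, 781 and 591 normalized counts in the *Vangl1/2* controls and 108, 172 and 226 in the mutants. All 3 mutants lay below all 3 controls, and the mutant mean of 169 ± 59.5 (SD, n = 3) was 0.309 of the control mean of 547 ± 258. On the scale of log2(normalized count + 1) the difference was -1.62 with a standard error of 0.40. Control 2, the control library that lay with the mutants across all genes, had the highest *Crabp1*, and against it alone the difference was -2.27. With a trend on exon length removed from each library the difference was -1.21. *Crabp1* (chr9:54764748-54773110, plus strand, mm10) has 802 bases of exon, the shortest of the 8 genes.

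The Wnt5a mutants did not differ in *Crabp1* beyond its spread. It was 180, 168 and 338 in the Dermo1-Cre controls and 169, 494 and 146 in the mutants, and both groups held low and high libraries. The difference was 0.09 (95% interval -0.86 to 1.03, adjusted p = 0.956, limma). Without the library labelled mutant 2 it was -0.46 (adjusted p = 0.484). The Sox9-Cre controls were 523, 249 and 225 and the mutants 505, 229 and 255, so that 1 library of each group stood well above the others. The difference was 0.0027 (95% interval -0.84 to 0.84, adjusted p = 0.9999). These intervals reach from 0.551 to 2.04 times and from 0.560 to 1.79 times the control level. The residual SD of *Crabp1* on the log2 scale was 0.68, 0.78 and 0.64 in the order *Vangl1/2*, Dermo1-Cre and Sox9-Cre. That was 3.61, 8.03 and 5.55 times the median of all genes tested, and above 96.8%, 98.2% and 97.0% of them.

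**Figure D1:**
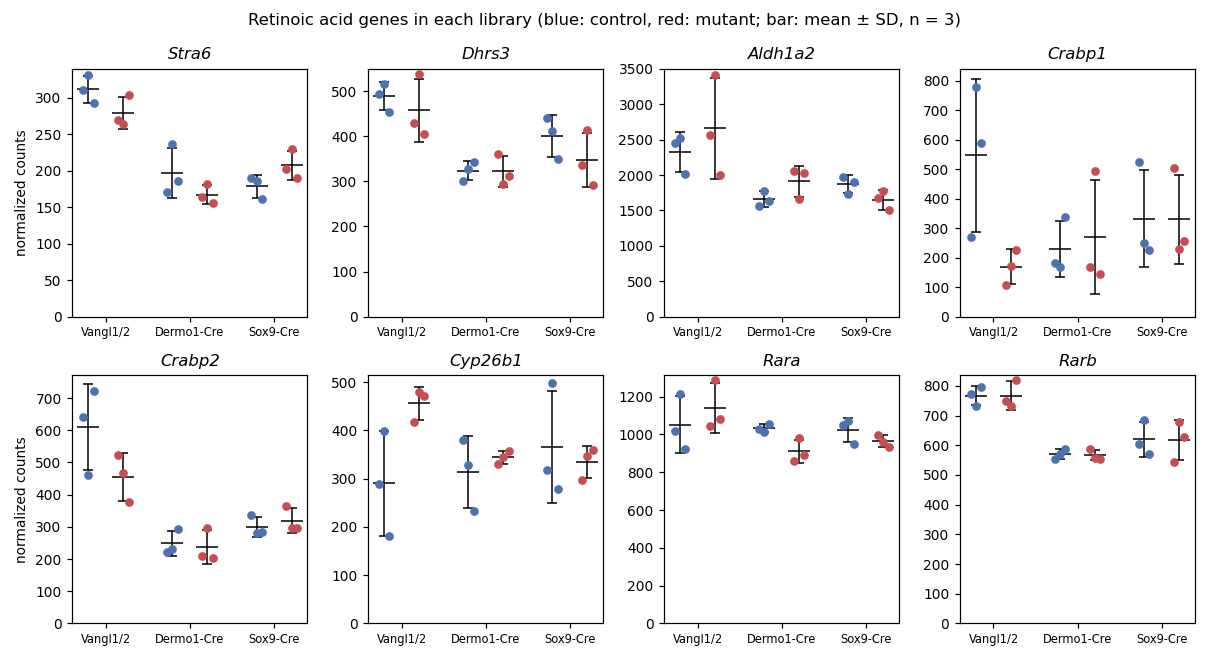
Normalized counts of the 8 genes in each library (y axes start at 0), with controls in blue, mutants in red, and the mean and SD of 3 libraries as bars. *Crabp1* was 270 to 781 in the *Vangl1/2* controls and 108 to 226 in the mutants, while in both Wnt5a experiments its groups overlapped.

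In the Wnt5a experiments the libraries with high *Crabp1* were also those with a higher summed level of oesophageal and squamous epithelial markers. The 5 markers of that list (*Krt5*, *Trp63*, *Krt15*, *Pitx1* and *Krt14*) were all present in each table, with only *Pitx1* listed at 0 in any library. Their summed level was 476 in Dermo1-Cre control 3 and 329 in mutant 2, the 2 libraries with the highest *Crabp1* there, against 72.9 to 119 in the other 4. It was 312 in Sox9-Cre control 1 and 426 in mutant 1, again the 2 libraries with the highest *Crabp1*, against 104 to 155 in the rest. It was 87.8, 293 and 118 in the *Vangl1/2* controls and in the mutants 78.5, 82.8 and 112, and the groups overlapped. Over the 18 libraries, each centred on its table, *Crabp1* and this sum had a Pearson correlation of 0.81, and 0.89 when centred on each group. The points share libraries and depth, and this is the largest of 13 marker lists for *Crabp1*. The markers did not all move together. *Krt15* was 51.5 in Sox9-Cre control 1, against 50.8 to 82.0 in the libraries with low *Crabp1* there. Centred on each table, the correlation was 0.66 with *Krt15* and 0.81 with the other 4 markers. In *Vangl1/2* control 3, *Crabp1* was 591 with a marker sum of 118, while in mutant 3 it was 226 with 112. Skeletal muscle markers were also high in Dermo1-Cre control 3 and mutant 2, at 975 and 1017 against 116 to 270 in the others. In the Sox9-Cre experiment they were highest in control 3 and mutant 1 (918 and 934), and 490 in control 1. Centred on each group, *Crabp1* had correlations of 0.67 with skeletal muscle, 0.64 with glia and neural crest and 0.62 with smooth muscle. Erythroid markers ran against it at -0.73, and at -0.12 when centred on each table. Their sum was 32570 to 51678 in the *Vangl1/2* controls and 27734 to 37136 in the mutants. The part of any of these cells in the *Crabp1* difference was not tested. In bulk RNA, fewer cells of a type and less RNA per cell cannot be told apart.

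*Fmo1*, *Dkk2*, *Angptl1*, *Cd9* and *Hexa* had patterns most like that of *Crabp1* over the 18 libraries, among 13980 genes and centred on each table (Pearson 0.877, 0.851, 0.850, 0.849 and 0.848). *Dkk2*, a secreted regulator of Wnt signaling, was 84.7, 193 and 89.3 in the *Vangl1/2* controls and 55.4, 65.0 and 93.6 in the mutants. *Angptl1* was 41.3, 139 and 58.9 in these controls and 30.2, 24.6 and 78.8 in the mutants. *Fmo1* was 25.8, 97.9 and 56.7 against 22.1, 26.6 and 50.2. These 3 genes overlapped between the groups there. *Cd9* was 506, 511 and 503 against 409, 464 and 476, and *Hexa* was 1139, 1145 and 1275 against 932, 1082 and 1043. Both were lower in all mutants, as were 8.68% of all genes tested. Centring on each table keeps the mutant difference on which *Crabp1* was chosen, so the ranking favours such genes and this is no separate support. Centred on each group, the correlations of *Cd9* and *Hexa* were 0.84 and 0.77. By the same measure the nearest gene was *Cd302* to *Crabp2* (0.909), *Wdr90* to *Cyp26b1* (0.900), *Furin* to *Rara* (0.887), *Serping1* to *Dhrs3* (0.836), *Ift81* to *Rarb* (0.790) and *Gapdhs* to *Stra6* (0.750).

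*Crabp2*, which delivers retinoic acid to its receptors, was 641, 462 and 723 in the *Vangl1/2* controls and 522, 468 and 376 in the mutants. Its groups overlapped, since control 2 lay below mutants 1 and 2, and the difference was -0.41 (SE 0.19). With the trend on exon length removed it was -0.08, and against control 2 alone it was -0.03. The values were 222, 232 and 294 in the Dermo1-Cre controls and 211, 297 and 203 in the mutants, with a difference of -0.09 (95% interval -0.44 to 0.27, adjusted p = 0.878, limma). Without the library labelled mutant 2 it was -0.26 (adjusted p = 0.440). The Sox9-Cre values were 337, 282 and 283 against 366, 296 and 297, with a difference of 0.09 (95% interval -0.18 to 0.35, adjusted p = 0.9999). Over the 18 libraries, each centred on its table, *Crabp2* ran against *Cyp26b1* (Pearson -0.75, the most negative of the 28 pairs of members). Centred on each group it was -0.64. Their exon lengths are 1322 and 5352 bases, and the part of the length trend in this correlation was not tested.

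*Cyp26b1*, the hydroxylase that clears retinoic acid, was higher in the *Vangl1/2* mutants. It was 289, 399 and 182 in the controls and 417, 480 and 472 in the mutants, and all mutants lay above all controls. The difference was 0.72 (SE 0.25), and 0.66 with the trend on exon length removed. Against control 2 alone it was 0.19, and without control 2 it was 0.99, so that its size depended on which controls entered. The 8 markers of lung mesenchyme, all present, summed to 74399, 128990 and 55751 in these controls and to 94519 to 119555 in the mutants, low in controls 1 and 3 like *Cyp26b1*. The collagen genes *Col1a1*, *Col1a2* and *Col3a1* made up 76.6% to 90.4% of this sum in the 18 libraries. For the other 5 markers the sum was 13272, 15218 and 13066 among controls, against 15860, 15834 and 15974 among mutants, again lowest in controls 1 and 3 and with groups that did not overlap. Over the 18 libraries *Cyp26b1* had a Pearson correlation of 0.58 with the collagens and 0.81 with the other 5 when centred on each table. The whole list gave 0.58, below 0.66 for the endothelial markers, the highest of the lists. Endothelial markers summed to 11804, 13088 and 11058 in these controls and to 12498 to 13531 in the mutants. They too were lowest in controls 1 and 3, as were markers of mesothelium, neurons, and glia and neural crest. The remaining lists were not. The part of these markers in the difference was not tested. The Dermo1-Cre controls were 380, 328 and 233 and the mutants 331, 345 and 356, with a difference of 0.16 (95% interval -0.18 to 0.50, adjusted p = 0.738, limma). The Sox9-Cre controls were 318, 498 and 279 and the mutants 298, 347 and 359, with a difference of -0.09 (95% interval -0.53 to 0.36, adjusted p = 0.9999). In each Wnt5a experiment the mutants lay inside the range of the controls.

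In the *Vangl1/2* experiment *Crabp1* and *Cyp26b1* were thus the 2 of 8 members whose groups did not overlap. Of all 14303 genes tested, 22.3% had groups that did not overlap, 8.68% lower and 13.6% higher in mutants. These shares stand beside the members as a description, since *Crabp1* was chosen on this contrast.

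*Aldh1a2*, the enzyme that makes retinoic acid in the embryo, had the highest level per kilobase of exon of the 8 genes in every group of controls, at 1028 ± 123, 734 ± 47.1 and 826 ± 56.0 normalized counts per kb (SD, n = 3). In the *Vangl1/2* controls the next gene, *Crabp1*, overlapped it, and in the other control groups no gene did. It was 2457, 2517 and 2008 normalized counts in the *Vangl1/2* controls and 2571, 3409 and 1998 in the mutants, with a difference of 0.17 (SE 0.19). It was -0.03 without mutant 2, 0.35 without mutant 3, 0.05 against control 2 alone and 0.36 with the trend on exon length removed. The Dermo1-Cre controls were 1569, 1778 and 1638 and the mutants 2055, 1661 and 2023. The difference of 0.20 (SE 0.082) did not pass (unadjusted p = 0.0369, adjusted p = 0.473, limma), and without the library labelled mutant 2 it was 0.30 (adjusted p = 0.156). The Sox9-Cre controls were 1978, 1730 and 1900 and the mutants 1675, 1775 and 1502, with a difference of -0.18 (SE 0.077, unadjusted p = 0.0446, adjusted p = 0.9999). The effect in the Sox9-Cre experiment minus that in the Dermo1-Cre experiment was -0.38 (95% interval -0.65 to -0.11). It did not pass after adjustment over 14121 genes (unadjusted p = 0.00927, adjusted p = 0.737, limma interaction).

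*Aldh1a2* moved with the mesothelium in these libraries. The summed level of 7 mesothelial markers, with *Muc16* of the 8 in the list not matched by name, was 3759, 4321 and 2875 in the *Vangl1/2* controls and 4910, 6695 and 4083 in the mutants. It was 2810 to 3810 and 3019 to 3856 in the Dermo1-Cre controls and mutants, and 3667 to 4320 and 2919 to 3639 in those of the Sox9-Cre experiment. Over the 18 libraries the Pearson correlation with *Aldh1a2* was 0.86 when centred on each table and 0.92 when centred on each group. *Upk3b*, a mesothelial gene in that list, was the gene most like *Aldh1a2* among 13980 genes (0.876). Mesothelial markers gave the highest correlation of the lists for *Aldh1a2*. Macrophage markers gave 0.54 centred on each table and 0.74 on each group, and smooth muscle markers -0.71 and -0.70. The part of these markers in the differences of *Aldh1a2* was not tested.

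**Figure D2:**
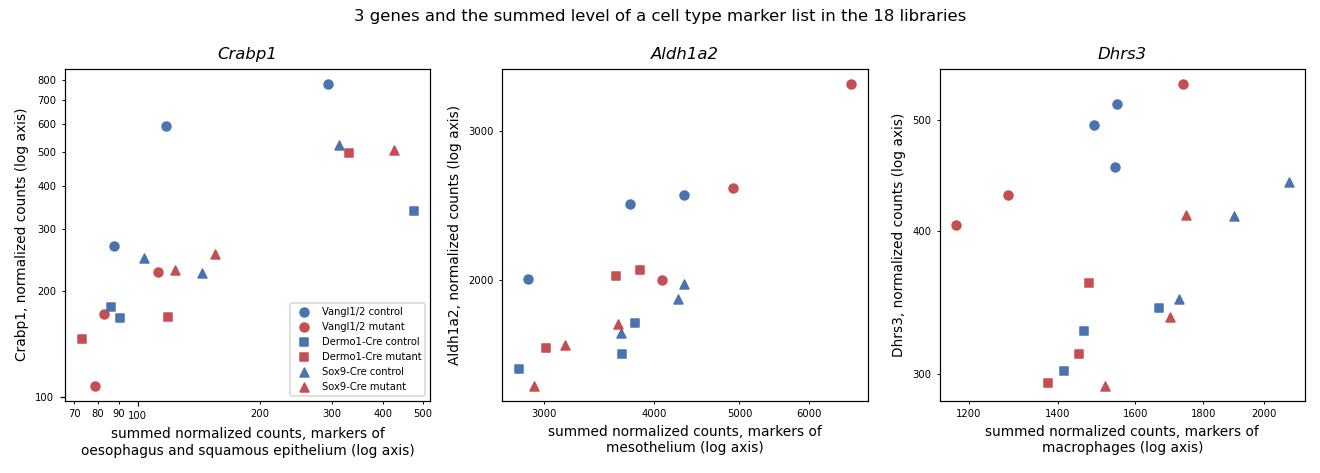
Normalized counts of *Crabp1*, *Aldh1a2* and *Dhrs3* against the summed normalized counts of a marker list in the 18 libraries (log axes), with controls in blue, mutants in red, and a symbol for each experiment. *Crabp1* ran with oesophageal and squamous markers, *Aldh1a2* with mesothelial and *Dhrs3* with macrophage markers (Pearson 0.81, 0.86 and 0.85 when centred on each table), and levels of different experiments were scaled separately.

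*Dhrs3*, which lowers the supply of retinal, was 495, 516 and 455 in the *Vangl1/2* controls and 430, 538 and 405 in the mutants, with a difference of -0.10 (SE 0.13). It was 0.02 with the trend on exon length removed, -0.19 against control 2 alone, and between -0.23 (without mutant 2) and -0.02 (without mutant 3) with 1 library left out. In the Dermo1-Cre experiment it was 302, 327 and 343 against 360, 295 and 313, with a difference of -0.01 (95% interval -0.22 to 0.20, adjusted p = 0.978, limma), and 0.05 (adjusted p = 0.857) without the library labelled mutant 2. At E13.5dpc, with Sox9-Cre, it was 441, 412 and 349 against 337, 413 and 293, with a difference of -0.21 (95% interval -0.52 to 0.10, adjusted p = 0.9999). Groups overlapped in all 3 experiments. *Dhrs3* followed the 6 macrophage markers, all present, over the 18 libraries (Pearson 0.85 centred on each table and 0.82 on each group). Their sum was 1490 to 1550 in the *Vangl1/2* controls and 1175 to 1739 in the mutants, 1415 to 1667 and 1375 to 1478 in the Dermo1-Cre groups, and 1727 to 2085 and 1518 to 1747 in the Sox9-Cre groups. Macrophage markers gave the highest correlation of the lists for *Dhrs3*. By the same measures mesothelial markers gave 0.53 and 0.74, cartilage markers -0.50 and -0.42, and *Aldh1a2* 0.62 and 0.72. The part of these markers in the values of *Dhrs3* was not tested.

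*Stra6*, the retinol transporter, had the lowest level per kilobase of the 8 genes in all 3 control groups, although in the *Vangl1/2* controls it overlapped *Cyp26b1*. It was 310, 331 and 293 normalized counts in the *Vangl1/2* controls and 269, 263 and 303 in the mutants (difference -0.16, SE 0.12), and the difference was -0.25 with the trend on exon length removed or against control 2 alone. The Dermo1-Cre controls were 170, 236 and 185 and the mutants 163, 182 and 156, with a difference of -0.23 (SE 0.13, adjusted p = 0.586, limma). The Sox9-Cre controls were 190, 185 and 161 and the mutants 202, 229 and 190, with a difference of 0.21 (SE 0.11, adjusted p = 0.9999). The difference between these effects was 0.44 (95% interval 0.05 to 0.83) and did not pass (unadjusted p = 0.0308, adjusted p = 0.901, limma interaction).

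The receptors varied less between libraries than *Crabp1*. *Rara* was 1016, 1216 and 924 in the *Vangl1/2* controls and 1046, 1290 and 1079 in the mutants (difference 0.12, SE 0.13). Against control 2 alone the difference was -0.10, and it was 0.23 without control 2, 0.03 without control 3 and 0.02 without mutant 2. In the Dermo1-Cre controls it was 1031, 1015 and 1054, and in the mutants 860, 980 and 892, so that all mutants lay below all controls. The difference of -0.18 (SE 0.058) is a level 0.881 times that of the controls, and it did not pass (unadjusted p = 0.0105, adjusted p = 0.367, limma). Without the library labelled mutant 2 it was -0.24 (adjusted p = 0.179). *Rara* was the only member of 8 with groups that did not overlap in this experiment, where 15.6% of all 14277 genes tested had such groups and 7.92% had them with lower mutants. *Rara* in the Sox9-Cre experiment was 1050, 1070 and 949 against 997, 959 and 934, with a difference of -0.09 (95% interval -0.23 to 0.06, adjusted p = 0.9999). Over the 18 libraries *Rara* ran with the 3 collagen genes of the mesenchymal list (Pearson 0.80 centred on each table or group), and less closely with the other 5 markers (0.50 and 0.58). The collagens summed to 88004 to 105094 in the Dermo1-Cre controls and 78772 to 89507 in the mutants, the others to 12378 to 12901 and 12399 to 12712, and their part in the *Rara* difference was not tested.

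*Rarb*, the member with the pair of hexamers before its start, differed little between groups. It was 772, 733 and 798 in the *Vangl1/2* controls and 750, 731 and 821 in the mutants, 554, 570 and 587 against 588, 559 and 555 in the Dermo1-Cre experiment, and 605, 685 and 571 against 545, 678 and 628 in the Sox9-Cre experiment. The *Vangl1/2* difference was -0.0012 (SE 0.096), 0.06 against control 2 alone and -0.05 with the trend on exon length removed. The others were -0.0077 (95% interval -0.14 to 0.12, adjusted p = 0.973, limma) and -0.0089 (95% interval -0.24 to 0.22, adjusted p = 0.9999). In the Dermo1-Cre experiment the interval reaches from 0.909 to 1.09 times the control level. The residual SD of *Rarb* was among the smaller ones at E12.5dpc, where 9.17% and 10.3% of the genes tested had a smaller one in the *Vangl1/2* and Dermo1-Cre experiments. In the Sox9-Cre experiment 62.1% did.

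**Figure D3:**
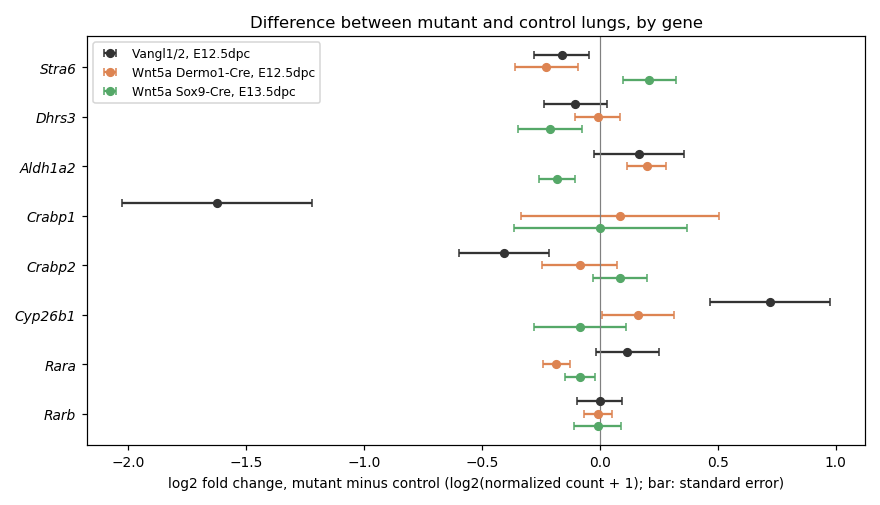
Differences between mutants and controls on the log2(normalized count + 1) scale (x axis) for the 8 genes (y axis) in the 3 experiments, with standard errors as bars. *Crabp1* at -1.62 and *Cyp26b1* at 0.72 in the *Vangl1/2* experiment, where the genes have no test, lie farthest from 0, and *Rarb* lies within 0.01 of 0 in each experiment.

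Of the tested contrasts, 0 of the 8 members passed at an adjusted p of 0.05 in the Dermo1-Cre experiment, where 0.014% of all genes did, and 2 (*Rara* and *Aldh1a2*) had an unadjusted p under 0.05, where 10.2% of all genes did. In the Sox9-Cre experiment 0 of 8 passed, as did 0% of 14293 genes, and 1 (*Aldh1a2*) had an unadjusted p under 0.05, against 3.9% of all genes. No member had groups that did not overlap there, against 8.78% of all genes. By edgeR and by DESeq2, 0 members passed in either experiment. The difference of the effects was called for 0 of 8 members, and for 0% of the 14121 genes. An unadjusted p under 0.05 was reached by 2 members (*Aldh1a2* and *Stra6*) and by 5.3% of all genes. The median difference of the 8 members was -0.05, -0.01 and -0.05 in the same order of experiments, and that of all genes tested was -0.01, 0.0007 and 0.0013.

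A further 50 genes of the pathway were listed by role. *Cyp26a1* and *Cyp26c1*, the other retinoic acid hydroxylases, were at most 17.7 and 1.99 normalized counts in any library, so that *Cyp26b1* was the only gene of that family past the filter of 10 normalized counts in 3 of 6 libraries. *Adh7*, *Aldh8a1*, *Cdx1*, *Dhrs9*, *Dkk1*, *Hoxb1*, *Stra6l* (listed as 1300002K09Rik), *Stra8* and *Ttr* also missed the filter in at least 1 table. At an adjusted p of 0.05, 0 of the 40, 40 and 39 genes tested passed in that order of experiments, where 0.00699%, 0.014% and 0% of all genes did.

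In the *Vangl1/2* experiment 13 of the 40 genes (32.5%) had an unadjusted p under 0.05, 9 higher and 4 lower in mutants, against 20.5% of all genes (12% higher and 8.56% lower). The 3 with the smallest p were *Fgf10*, the growth factor of the distal mesenchyme that drives budding, *Nrip1*, a receptor corepressor, and *Crebbp*, a histone acetyltransferase and coactivator. *Fgf10* was 832, 1040 and 666 in controls and 1353, 1366 and 1187 in mutants (difference 0.64, SE 0.16, adjusted p = 0.233, limma). *Nrip1* was 459, 832 and 548 against 1119, 969 and 1029 (difference 0.80, SE 0.20, adjusted p = 0.233). *Crebbp* was 577, 1227 and 476 against 1334, 1499 and 1435 (difference 1.03, SE 0.31, adjusted p = 0.233). In all 3 genes the mutants lay above the controls, as in 13.6% of all genes tested, and control 2 was the highest control. Against control 2 alone the differences were 0.32, 0.32 and 0.21 in this order. With the trend on exon length removed they were 0.49 for *Nrip1* and 0.66 for *Crebbp*, and at least 0.61 for *Fgf10*.

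All 8 corepressors and coactivators, a group described after its values were seen, had a difference above 0 there. Their median was 0.52, against -0.01 for all genes tested. Of them 6 reached an unadjusted p under 0.05, all higher in mutants, against 12% of all genes in that direction. The 8 are long genes, with a median exon length of 12134 bases against 4456.5 for all genes tested. With the trend on exon length removed their median was 0.25, and against control 2 alone it was 0.12, with 7 of 8 above 0. Without control 2, 22 of the other retinoic acid genes passed (16 higher and 6 lower, among them all 8 corepressors and coactivators), while 43.6% of all genes passed in that fit. In the Dermo1-Cre and Sox9-Cre experiments the median of the 8 genes was 0.05 and -0.02.

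**Figure D4:**
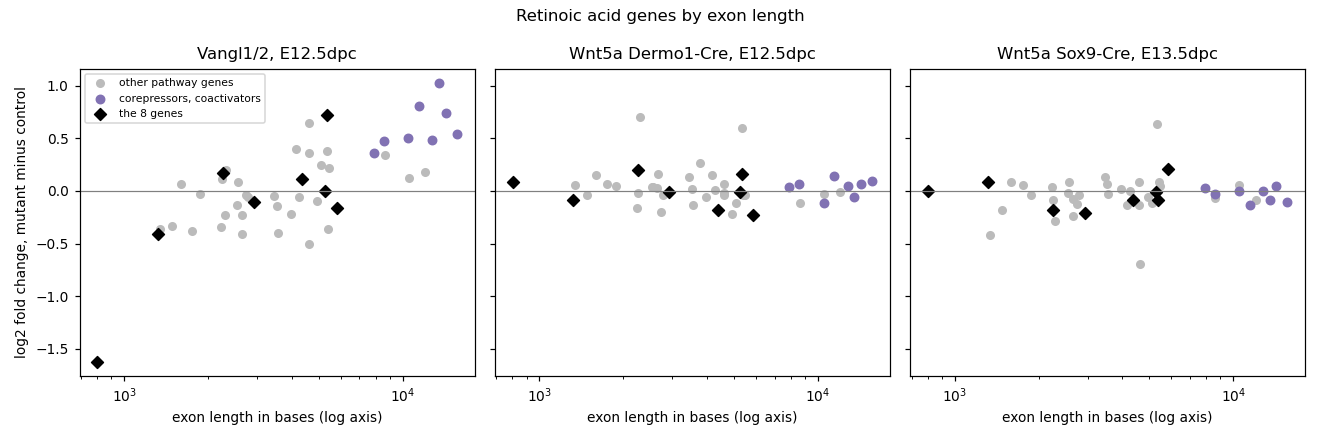
Difference between mutants and controls on the log2 scale (y axis) against exon length in bases (log x axis) for the 8 genes and the other pathway genes tested in each experiment. *Crabp1*, with 802 bases, lies lowest in the *Vangl1/2* experiment at -1.62, and the 8 corepressors and coactivators, with a median of 12134 bases, all lie above 0.

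Genes of retinol and retinal conversion lay on both sides of 0 in the *Vangl1/2* experiment, 1 above and 6 below. Of these 7, 3 were lower and 1 was higher at an unadjusted p under 0.05, against 8.56% and 12% of all genes. *Adh1*, an alcohol dehydrogenase that oxidizes retinol, was 4255, 4032 and 4417 in controls and 2930, 3473 and 3646 in mutants (difference -0.34, SE 0.11, adjusted p = 0.233, limma). *Dhrs4* was 1452, 1029 and 1486 against 1070, 986 and 957 (difference -0.38, SE 0.15, adjusted p = 0.235), and *Rdh14* was 383, 314 and 393 against 264, 309 and 290 (difference -0.33, SE 0.13, adjusted p = 0.235). Groups overlapped in *Dhrs4* and did not in *Adh1* and *Rdh14*, as was so with lower mutants in 8.68% of all genes tested. With the trend on exon length removed these differences were -0.15, -0.12 and -0.03, and against control 2 alone they were -0.27, -0.04 and -0.13. *Rdh10*, the higher gene and the retinol dehydrogenase of the embryo that works before ALDH1A2, was 1059, 1282 and 831 in controls and 1476, 1481 and 1188 in mutants (difference 0.40, SE 0.17, adjusted p = 0.240, limma). Its groups overlapped, and the difference was 0.43 with the trend on exon length removed and 0.10 against control 2 alone. In the Dermo1-Cre experiment *Rdh10* had the smallest p of the list. It was 797, 818 and 817 in those controls and 923, 904 and 882 in the mutants, all above the controls (difference 0.15, SE 0.048, adjusted p = 0.361). Groups did not overlap in 15.6% of all genes tested there, in either direction. In the Sox9-Cre experiment *Rdh10* was 910, 883 and 953 against 759, 827 and 928 (difference -0.13, SE 0.080, adjusted p = 0.9999).

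In the Dermo1-Cre experiment 5 of 40 genes had an unadjusted p under 0.05, 1 higher and 4 lower, against 10.2% of all genes (5.42% higher and 4.76% lower). After *Rdh10* came *Btg2*, an antiproliferative gene, at 913, 829 and 857 in controls and 819, 740 and 707 in mutants (difference -0.20, SE 0.067, adjusted p = 0.405, limma). *Nr2f2*, a nuclear receptor of the mesenchyme, was 5210, 5045 and 5430 against 4771, 5068 and 4613 (difference -0.12, SE 0.047, adjusted p = 0.460).

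In the Sox9-Cre experiment 2 of 39 genes (5.13%) had an unadjusted p under 0.05, both lower, against 3.9% of all genes (2.81% lower). *Tgm2*, a transglutaminase gene that retinoic acid is known to induce, was 2610, 2599 and 2655 in controls and 2473, 2372 and 2306 in mutants (difference -0.14, SE 0.047, adjusted p = 0.9999, limma). *Rdh14* was 327, 321 and 324 against 292, 298 and 270 (difference -0.18, SE 0.077, adjusted p = 0.9999). *Lrat*, which stores retinol as its esters, was 101, 86.6 and 225 against 154, 215 and 224, and its groups overlapped (difference 0.63, SE 0.33, adjusted p = 0.9999).

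**Figure D5:**
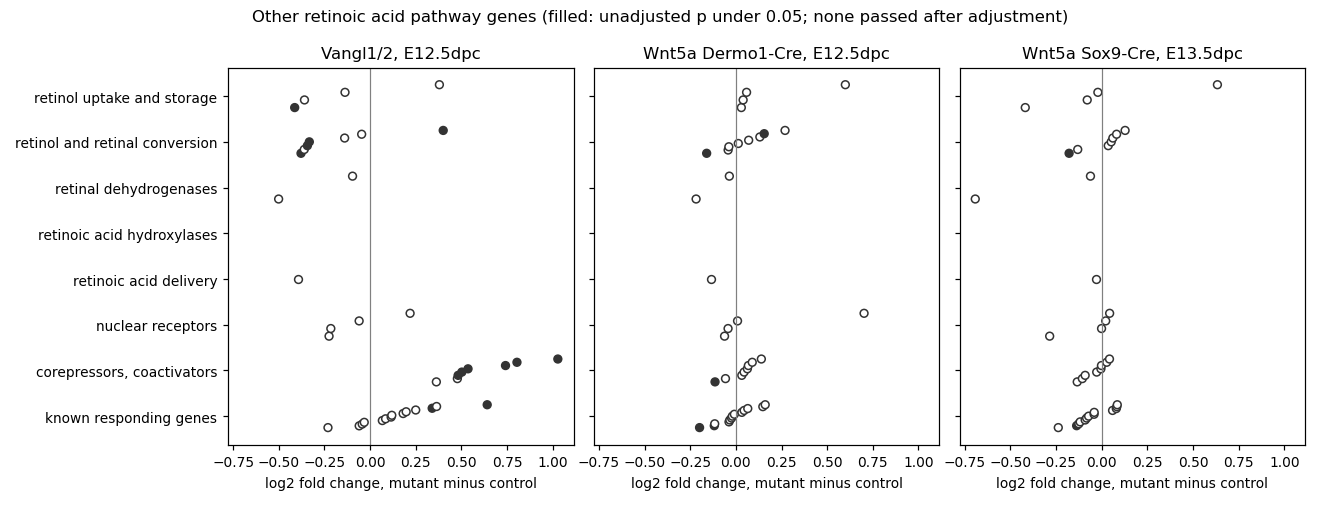
Differences between mutants and controls on the log2 scale (x axis) for the other retinoic acid genes tested, by role (y axis), in the 3 experiments, with filled points for an unadjusted p under 0.05. The corepressors and coactivators lie above 0 in the *Vangl1/2* experiment (median 0.52) and about 0 in the others (0.05 and -0.02), and no gene passed after adjustment.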

How the data were processed

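RNA of embryonic mouse lungs was sequenced in 18 libraries. The submitters' processing notes name Trim Galore, HISAT2, featureCounts, DESeq2 and mm10, with no versions. The authors deposited 1 table of 23420 genes for each experiment. The column of a library holds normalized counts, a signal obtained by the authors from gene counts and a size factor, and all values were whole reads once multiplied back (largest deviation 3.7e-05, size factors 0.952 to 1.07). Spreadsheet dates replaced 27 gene names in each table. Columns of log2 fold changes and p-values, which the authors deposited from their own comparison, were not used.

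Normalized counts were put on the log2 scale with a pseudocount of 1. Genes with at least 10 in at least 3 of 6 libraries were tested within each table by limma 3.58.1 with a mean-variance trend (R 4.3.3), with Benjamini-Hochberg adjustment at 0.05. The 3 tables were normalized separately, so that levels are compared within a table and effects between tables by an interaction term. edgeR 4.0.16 and DESeq2 1.42.0 on recovered reads were alternatives, besides other pseudocounts (0.5 and 5), filters, TMM scaling, a replicate block, removal of a trend on exon length, and leaving out each library. The fits were tested on simulated data. Exon lengths and positions came from GENCODE M21 (98.4% of names paired), and promoters from RefSeq. Python 3.11.15 was used for summaries.

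The members and the lists were chosen with earlier results of these data known. Named are the 8 members, the targeted genes, the 3 other retinoic acid genes with the smallest p in each experiment, those below the filter, and the genes most like each member. *Rdh10*, *Adh1*, *Dhrs4*, the corepressors and coactivators as a group, and *Rdh14* in the *Vangl1/2* experiment were described after their values were seen. So were the marker lists set beside a member and the parts of such lists. Comparison with control 2 alone was also chosen after seeing the data.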

Additional observations from a re-analysis of the deposited data

How the results depend on the processing

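Members at an adjusted p under 0.05 numbered 0 in the Dermo1-Cre and Sox9-Cre experiments and in the difference of their effects under all alternatives run. The number of all genes passing was less steady, and the cause was not tested. It was 1 in the *Vangl1/2* experiment, 11 by DESeq2 and 0 to 6180 when 1 library was left out. It was 2 in the Dermo1-Cre experiment, 101 by DESeq2 and 0 to 52 with 1 library left out, and 0 in the Sox9-Cre experiment, 9 by DESeq2 and 0 to 13. For the difference of effects it was 0, then 1 with the length trend removed and 0 to 60 with 1 library left out. Other retinoic acid genes passing in the *Vangl1/2* experiment numbered 0, and 0 to 22 with 1 library left out, 22 without control 2. The *Crabp1* difference there ranged from -2.07 to -1.30 with 1 library left out.

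With a replicate block, 0 genes passed in the *Vangl1/2* and 16 in the Dermo1-Cre experiment. The labels do not say whether same-numbered libraries are pairs. Their deviations correlated at 0.30, 0.049 and 0.013 (*Vangl1/2*), 0.073, -0.073 and -0.22 (Dermo1-Cre), and 0.053, 0.13 and -0.12 (Sox9-Cre). These correlations cannot settle whether a litter or batch was shared. The block moved no call of a member.

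Differences near 0 turned in sign. *Dhrs3* in the Dermo1-Cre experiment was 0.021 with the length trend removed, *Crabp1* in the Sox9-Cre experiment was -0.010 by edgeR and -0.013 by DESeq2, and the difference of effects for *Rarb* was 0.0080 with TMM scaling. With 1 library left out, the Dermo1-Cre values ranged from -0.46 to 0.41 for *Crabp1*, -0.26 to 0.038 for *Crabp2*, -0.037 to 0.31 for *Cyp26b1*, -0.091 to 0.052 for *Dhrs3* and -0.034 to 0.013 for *Rarb*. The Sox9-Cre values ranged from -0.35 to 0.38 for *Crabp1*, -0.015 to 0.17 for *Crabp2*, -0.25 to 0.16 for *Cyp26b1* and -0.080 to 0.078 for *Rarb*. The difference of effects ranged from -0.44 to 0.47 for *Crabp1* and -0.072 to 0.086 for *Rarb*. With 3 libraries in each group, a *Crabp1* change inside the intervals given is compatible with these data. The size of a *Crabp1* change that could be detected was not computed.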
